A study of Mus musculus with 12 samples.

Results

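Lungs of mice carrying an orthotopic 4T1 tumor were compared with lungs of control mice on day 7, on 1 Affymetrix mouse expression array per sample. Of the 12 arrays in the series, 6 were lung arrays and were used here, 3 titled pre-metastatic lung and 3 titled control lung; the other 6 were liver arrays of the same 2 kinds of mice. All were female nude NCR mice, a strain that lacks mature T cells because it has no working thymus. The tumor-bearing group received cells of 4T1, an established line from a mammary carcinoma of a mouse that is known to spread to the lung, and the control group received an orthotopic injection of PBS in place of cells. The labels used here give no ages. The labels number the samples of each group from 1 to 3 and the design describes 3 mice a group, so the spread between arrays is the spread between mice together with the handling of each tissue, and 3 arrays a group set the precision.

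Neutrophils are made in the bone marrow, where they fill primary, secondary and tertiary granules in turn with antimicrobial proteins and proteases before they enter the blood. The lung holds a large pool of them in its capillaries even in health. Tumors that secrete granulocyte growth factors drive the release of neutrophils and monocytes, and such cells, together with matrix proteins and proteases, are part of what has been called the pre-metastatic niche of the lung. In a bulk tissue sample, more cells of a type and more RNA per cell cannot be told apart.

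The markers of the labelled tissue were high in all samples. The 20 measured alveolar epithelial genes averaged between 12.92 and 13.16 on the log2 scale on the 6 lung arrays, near the top of the array's range. Transcripts of other organs were also present and did not follow the groups. The 26 measured hepatocyte genes, such as Cyp2e1 and Fga, averaged 4.90, 3.76 and 9.69 on control lungs 1, 2 and 3 and 8.46, 3.95 and 3.76 on tumor-bearing lungs 1, 2 and 3, against 15.3 to 15.4 on the liver arrays. On control lung 3 none of the 26 genes was at or under 4, the level taken here as not above background, and on tumor-bearing lung 1 it was 1 gene, whereas on the other 4 lung arrays it was 14, 20, 18 and 20 genes. The 20 cardiac muscle genes split the arrays another way, averaging 3.67 on control lung 1 and 4.52 on tumor-bearing lung 1 and between 7.00 and 8.36 on the other 4. Platelet genes varied as well, from 5.16 on tumor-bearing lung 1 to 7.66 on tumor-bearing lung 2. The defining genes of mammary epithelium were at or under 4 for 13 of the 14 measured on every lung array, Elf5, which alveolar cells also express, being the exception. Where the members of a gene list are counted, the counts are therefore given with all 6 arrays and again without tumor-bearing lung 1 and control lung 3, which leaves 4 arrays, 2 a group. Since values at or under 4 carry no order, the counts cover the list's genes above 4 on at least 1 of the arrays compared. They are to be read beside all genes counted the same way. With 6 arrays, 3871 of 8240 genes had the higher and 4357 the lower mean, and 8.92% and 9.31% had groups without overlap. With the 4 arrays it was 3664 and 4404 of 8095, and 16.6% and 23.1%. The 4 arrays still differ in transcripts of other organs, since control lung 1 stayed in, with cardiac genes at 3.67 and hepatocyte genes at 4.90. On them 16 of 18 cardiac genes had the higher mean in tumor-bearing lung and 2 the lower, with a median difference of 1.59. With all 6 arrays it was 5 higher and 13 lower, with a median of -0.44.

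**Figure D1:**
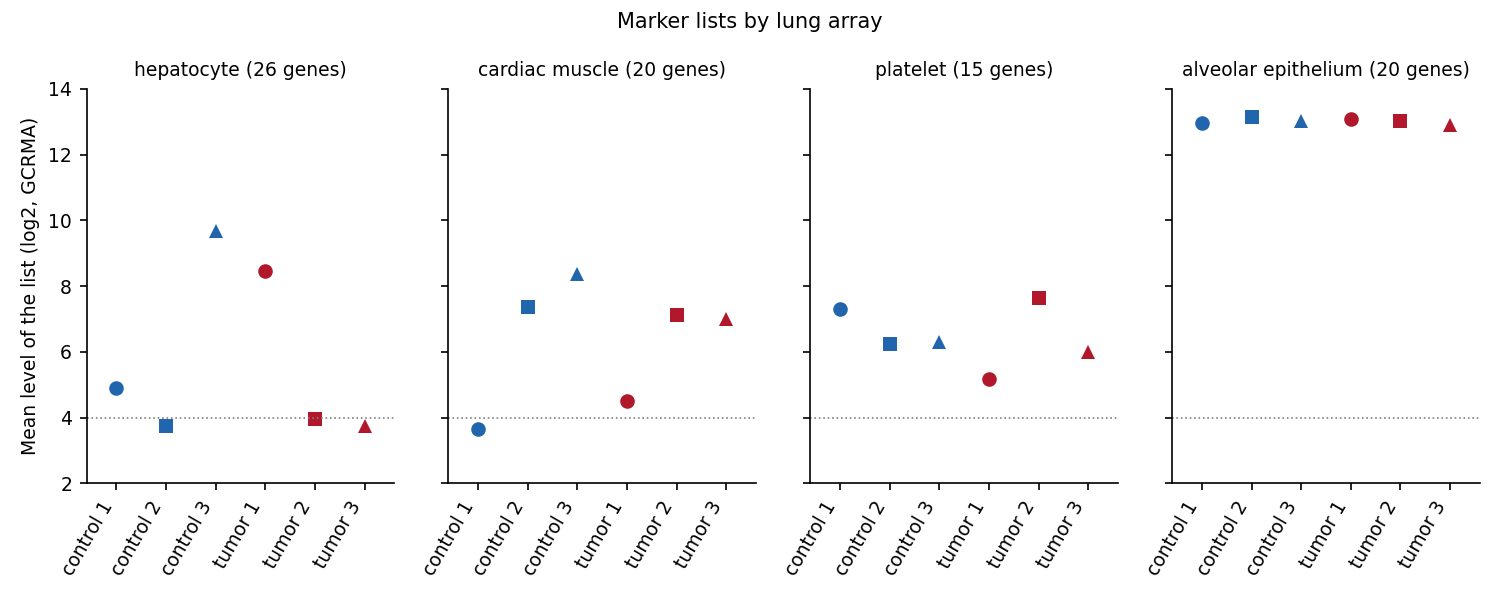
Mean deposited level (log2, GCRMA) of 4 marker lists on each of the 6 lung arrays, controls in blue and tumor-bearing in red, with a dotted line at 4. Hepatocyte genes were high on control 3 (9.69) and tumor-bearing 1 (8.46), cardiac genes were low on control 1 (3.67) and tumor-bearing 1 (4.52), and alveolar epithelial genes were level (12.92 to 13.16).

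Neutrophil genes were among those that differed between tumor-bearing and control lung. Of 7907 genes tested with limma, 49 (0.62%) were higher and 9 (0.114%) lower at a Benjamini-Hochberg adjusted p under 0.05. The higher genes ranged from Ifitm6, at least 105-fold, to Rassf5, 1.63-fold, and the lower genes above background in both groups from Sec14l2, 2.93-fold, to Klhl21, 1.54-fold. Of the 58, 4 were among 14 neutrophil granule genes tested and 7 among 20 neutrophil surface and cytosol genes. Of 18 monocyte genes tested 2 were called, and of 8 B cell genes 1, while 34 of the 58 belonged to none of the lists. The arrays had been normalized to a common distribution, which sets the median difference over all genes near 0 (-0.01, log2). Without tumor-bearing lung 1 and control lung 3, 2 arrays a group remained and no gene passed the adjusted threshold, while 769 had an unadjusted p under 0.05. In all 58 called genes the groups did not overlap on the 6 arrays. Leaving arrays out could therefore neither turn their direction nor make their groups overlap, and that both held is no support. All 58 had an unadjusted p under 0.05 in that fit. The ratio of the change without those arrays to the change with them ran from 0.86 to 1.18 with a median of 1.00. The 58 genes were chosen on arrays that include these 4, so the smaller fit is no independent check. Calls also fell when single arrays were left out, to 21, 27 and 33 genes without tumor-bearing lung 1, 2 and 3 and to 5, 14 and 5 without control lung 1, 2 and 3. Ifitm6, Ltf, Mmp8 and Cd79b passed in all 6 of those fits, and 24 of the 58 genes passed in none.

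**Figure D2:**
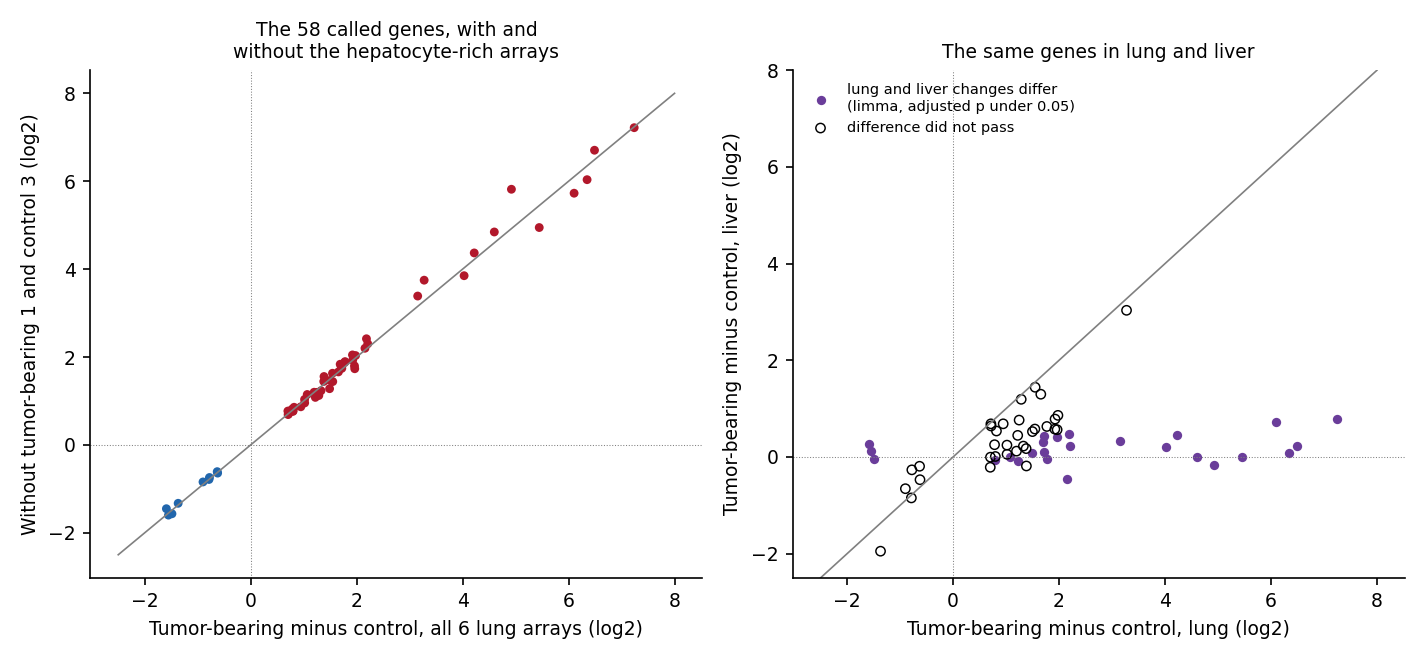
Log2 change (tumor-bearing minus control) of the 58 genes called in lung. On the left, the change with all 6 arrays on the x axis and without tumor-bearing lung 1 and control lung 3 on the y axis, with higher genes in red and lower in blue. On the right, the lung change on the x axis and the liver change on the y axis, filled where the difference between them passed limma's test. Grey diagonals mark equal changes. The points on the left lie along the diagonal, and on the right 25 genes are filled, and neutrophil genes at or under 4 on every liver array, such as Ltf and Camp, lie near 0 there, which is no measured change.

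Neutrophil granule genes had some of the largest differences. Ltf encodes lactoferrin, an iron-binding protein of secondary granules, and read 9.21, 8.62 and 8.82 on the 3 tumor-bearing arrays against 2.23, 3.14 and 2.23 on the controls. Since all 3 control values were under 4, its rise is given as a bound of at least 29.5-fold (limma adjusted p = 0.00186, n = 3 a group). Camp, the precursor of the antimicrobial peptide cathelicidin, read 8.31, 10.002 and 8.64 against 2.10, 3.13 and 2.25, at least 31.6-fold higher (limma adjusted p = 0.0099). Mmp8, the neutrophil collagenase, was at 6.83, 6.45 and 6.50 against 2.45, 2.81 and 2.45, at least 6.04-fold higher (limma adjusted p = 0.00163). In all 3 genes every control array was under 4 and every tumor-bearing array above it, so the size of the gap was not measured. Ngp, a neutrophil granule protein of the cystatin family, was measurable in both groups, at 12.10, 12.24 and 11.45 against 4.88, 7.35 and 5.24. It rose 68.8-fold (limma adjusted p = 0.0272), with control lung 2 the highest of the controls.

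Other granule genes had separated groups without passing the test. Mmp9, the gelatinase of tertiary granules, read 9.85, 9.80 and 7.82 against 5.60, 5.75 and 5.54, a difference of 3.52 ± 0.55 (log2 ± SE, n = 3 a group; limma adjusted p = 0.0618). Pglyrp1, a peptidoglycan-binding granule protein named after its values were seen, differed by 2.66 (limma adjusted p = 0.0555). Of 20 granule genes measured, 5 were at or under 4 on all 6 arrays. Of the other 15, 13 had the higher mean in tumor-bearing lung and 2 the lower, and 11 had groups that did not overlap in the higher direction against 0 in the lower, where the shares over all 8240 genes above 4 on at least 1 lung array were 8.92% and 9.31%. Their median difference was 2.02, against -0.01 over those 8240 genes; in 5 of the 14 granule genes tested all controls were at or under 4, so these passed the filter only through tumor-bearing lung. On the 4 arrays without tumor-bearing lung 1 and control lung 3, 12 of the 15 were higher, 11 without overlap, and the median was 2.01.

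C/EBP factors, above all C/EBP epsilon, drive granule gene transcription in maturing neutrophils, and 4 promoters of called neutrophil genes are shown because they hold a C/EBP letter match. Pilra held 1 as well, whereas the listed promoters of Camp, Ifitm6, Cd177, Slfn4 and Cyp4f18 held none. Each run is the 250 bases before the RefSeq start of transcription, 5′ to 3′ on the gene's own strand (GRCm38.p6), with the letters TTNNGCAA, read on either strand, in capitals.
Ltf, chr9:111019042-111019291 (plus strand): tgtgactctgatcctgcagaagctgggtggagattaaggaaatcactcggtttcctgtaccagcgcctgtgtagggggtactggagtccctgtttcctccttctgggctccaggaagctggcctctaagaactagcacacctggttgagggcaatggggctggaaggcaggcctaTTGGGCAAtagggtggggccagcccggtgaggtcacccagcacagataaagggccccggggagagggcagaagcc
Ngp, chr9:110419558-110419807 (plus strand): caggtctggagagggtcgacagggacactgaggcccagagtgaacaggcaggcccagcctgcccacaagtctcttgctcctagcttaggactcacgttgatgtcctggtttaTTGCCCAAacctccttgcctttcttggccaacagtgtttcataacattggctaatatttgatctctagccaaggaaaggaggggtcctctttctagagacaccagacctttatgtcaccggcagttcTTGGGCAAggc
Mmp8, chr9:7558179-7558428 (plus strand): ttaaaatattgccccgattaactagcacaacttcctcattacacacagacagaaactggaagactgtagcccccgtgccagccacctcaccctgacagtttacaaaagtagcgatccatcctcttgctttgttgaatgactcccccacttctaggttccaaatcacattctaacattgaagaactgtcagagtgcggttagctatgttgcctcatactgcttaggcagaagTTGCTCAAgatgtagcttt
Clec4e, chr6:123289872-123290121 (minus strand): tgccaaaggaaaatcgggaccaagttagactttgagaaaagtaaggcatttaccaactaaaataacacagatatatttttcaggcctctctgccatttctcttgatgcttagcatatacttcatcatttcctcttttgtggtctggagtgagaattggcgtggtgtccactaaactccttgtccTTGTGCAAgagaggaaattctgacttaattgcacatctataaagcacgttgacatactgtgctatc
Ngp held 2 matches, 138 and 11 bases before the start, and the other promoters held 1 each. Among granule genes with a listed promoter, 6 of 17 held a match, or 35.3%, against 9.56% of all 32851 windows of the same length. Of the genes called higher, 8 of 37 with a promoter held one (17% of their windows). Of the genes called lower it was 4 of 8 (36.4% of their windows). A match of letters is a description of the sequence and no measured binding site.

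Genes of the neutrophil surface and cytosol were also higher in tumor-bearing lung, 7 of them past the test. Ifitm6, an interferon-induced transmembrane family member abundant in bone marrow myeloid cells, read 11.28, 10.40 and 10.47 against 2.81, 3.63 and 4.00. It was at least 105-fold higher (limma adjusted p = 0.00262). Cd177, a surface glycoprotein of neutrophils, read 8.49, 6.83 and 7.30 against 2.04, 2.19 and 2.04, at least 11.6-fold higher (limma adjusted p = 0.0099). Clec4e, which encodes the pattern receptor Mincle, stood at 6.18, 7.52 and 6.27 against 2.04, 2.06 and 2.08, at least 6.31-fold higher (limma adjusted p = 0.0099). The control values of Cd177 and Clec4e were at or near the lowest value on the array, 2.04. Slfn4, a myeloid Schlafen family gene, had widely spread controls, 3.86, 4.87 and 6.60 against 9.73, 10.27 and 10.09 (limma adjusted p = 0.0466).

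Other called neutrophil genes were above 4 on control arrays too. Ncf4, the p40 subunit of the phagocyte NADPH oxidase, rose 3.89-fold, Pilra, an inhibitory receptor, 2.37-fold, and Alox5ap, which presents arachidonic acid to 5-lipoxygenase, 2.34-fold (limma adjusted p = 0.0139, 0.0099 and 0.0143). For Alox5ap the values were 12.33, 12.22 and 12.03 against 10.85, 11.04 and 11.01, so the groups did not overlap and each was narrow. Cyp4f18, the neutrophil enzyme that hydroxylates leukotriene B4, rose 8.89-fold, from 3.52, 4.03 and 3.98 to 6.66, 7.73 and 6.59 (limma adjusted p = 0.0253). Only 1 of its controls was above 4, and with values at or under 4 set to 4 it rose by 2.99 (log2). S100a8 and S100a9 encode the subunits of calprotectin, an abundant cytosolic protein of neutrophils. S100a8 read 15.49, 15.40 and 15.36 against 11.57, 13.51 and 12.72 (limma adjusted p = 0.0728), and S100a9 read 15.68, 15.55 and 15.45 against 11.63, 13.36 and 12.80 (limma adjusted p = 0.0535). Neither passed, though the groups did not overlap, and in both the spread lay among the controls, with control lung 1 lowest.

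Of 25 surface and cytosol genes measured, 3 were at or under 4 on every lung array. All the other 22 had the higher mean in tumor-bearing lung, 19 had groups that did not overlap, and the median difference was 2.33. All controls were at or under 4 in 7 of the 20 tested. With tumor-bearing lung 1 and control lung 3 left out, 21 were higher and 1 lower, 20 without overlap, with a median of 2.67. Over all genes, 8.92% were higher without overlap with 6 arrays and 16.6% with 4. Csf3r, the receptor for granulocyte colony-stimulating factor, differed by 2.37 ± 0.34 (limma adjusted p = 0.053). Itgam, the CD11b integrin subunit, read 2.49, 2.46 and 2.87 on the controls, all under 4, and was at least 2.72-fold higher in tumor-bearing lung (limma adjusted p = 0.0513). Cxcr2, the chemokine receptor that draws neutrophils out of the marrow, was at 3.31 on all 3 controls and at 4.99, 7.76 and 4.04 on the tumor-bearing arrays, so that tumor-bearing lung 2 was far above the others (at least 3.02-fold higher; limma adjusted p = 0.371).

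**Figure D3:**
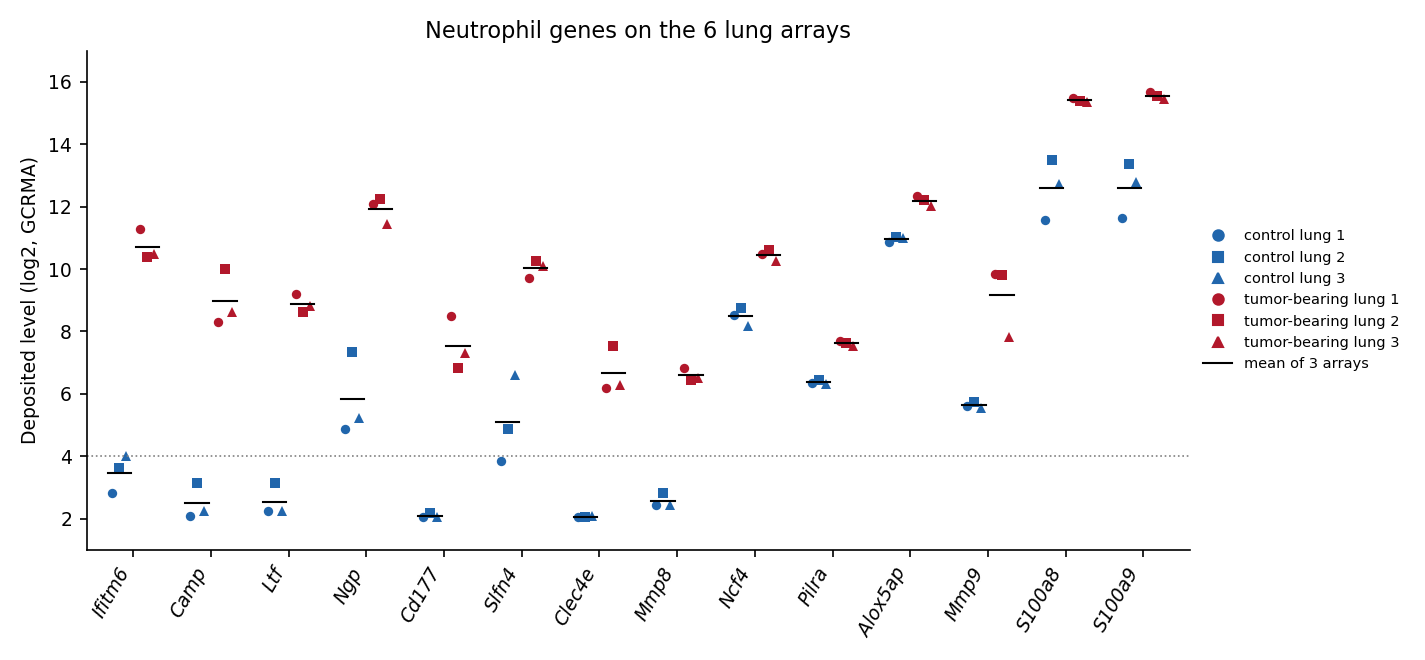
Deposited level (log2, GCRMA) of 14 neutrophil genes on each of the 3 control (blue) and 3 tumor-bearing (red) lung arrays, with symbols for the sample number and a bar at each mean; the dotted line marks 4. In all 14 genes every tumor-bearing array lies above every control array. Mmp9, S100a8 and S100a9 did not pass limma's adjusted threshold.

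Differences in monocyte genes were smaller in size, and 2 genes passed. Plac8, a small cysteine-rich protein of inflammatory monocytes and granulocytes, rose 3.94-fold, reading 12.16, 12.38 and 12.65 against 10.51, 10.45 and 10.29 (limma adjusted p = 0.0099). Fcgr4, an activating IgG receptor of monocytes and neutrophils, rose 2.82-fold (limma adjusted p = 0.0391). All 18 monocyte genes above 4 had the higher mean in tumor-bearing lung and 11 had groups that did not overlap, with a median difference of 0.46. Without tumor-bearing lung 1 and control lung 3, 15 were higher and 3 lower, 14 without overlap, and the median was 0.42. The shares of all genes higher without overlap were 8.92% with 6 arrays and 16.6% with 4. Csf1r, the receptor for the monocyte and macrophage growth factor, is an example of the small size: it read 11.07, 11.02 and 11.04 against 10.67, 10.65 and 10.65 (difference 0.39 ± 0.07; limma adjusted p = 0.102). Ms4a4c, a membrane protein of inflammatory monocytes, read 4.29, 6.88 and 6.54 against values of 2.05 to 2.06, so that its level in controls is only a bound (limma adjusted p = 0.083). Csf1r and Ms4a4c were named after their values were seen.

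No alveolar macrophage gene of the 17 tested passed. With all arrays 7 had the higher mean and 10 the lower, 1 gene in each direction had groups that did not overlap, and the median difference was -0.15. On the 4 arrays without tumor-bearing lung 1 and control lung 3 more were lower, 14 against 3, with 9 lower and 1 higher without overlap and a median of -0.34. Over all genes the shares without overlap were 9.31% lower and 8.92% higher with 6 arrays, and 23.1% and 16.6% with 4. Msr1, a scavenger receptor, read 5.93, 5.05 and 5.08 against 3.96, 3.22 and 3.60 (limma adjusted p = 0.0815), whereas Cidec, a lipid droplet protein, read 3.69, 2.87 and 2.37 against 4.14, 5.50 and 5.26 (limma adjusted p = 0.165). Mrc1, the mannose receptor, named after its values were seen, ran from 10.86 to 11.83 on the tumor-bearing and from 11.46 to 11.86 on the control arrays, with overlapping groups (limma adjusted p = 0.594). Without those 2 arrays it differed by -0.81 and the groups no longer overlapped.

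B cell genes include 1 that passed, in a strain that retains B cells. Cd79b, a signalling chain of the B cell receptor, had the second smallest p of all genes. It read 7.80, 7.87 and 7.71 against 5.57, 5.62 and 5.73 and rose 4.46-fold (difference 2.16 ± 0.09; limma adjusted p = 0.00163). Ms4a1, which encodes CD20 and was named after its values were seen, read 7.57, 8.37 and 7.06 against 2.91, 2.90 and 4.92 (limma adjusted p = 0.0601). Of 21 B and plasma cell genes measured, 12 were at or under 4 on every lung array. Of the other 9, 8 had the higher mean and 1 the lower, 6 had groups that did not overlap in the higher direction, and the median difference was 1.29. With tumor-bearing lung 1 and control lung 3 left out the split was again 8 and 1, with 7 without overlap and a median of 1.44. All genes counted alike were higher without overlap in 8.92% with 6 arrays and 16.6% with 4. Ltb, the lymphotoxin beta that lymphocytes make, rose 4.62-fold, from 4.93, 4.66 and 4.64 to 6.67, 7.25 and 6.94 (limma adjusted p = 0.0099).

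Of 25 T and NK cell genes, 15 were at or under 4 on every array and none of the 6 tested passed. Of the 10 others, 6 were higher and 4 lower, and 7 and 3 without tumor-bearing lung 1 and control lung 3. Nkg7, a cytotoxic granule protein, read 6.54, 7.98 and 5.86 against 7.19, 5.87 and 5.60. H2-Eb1, a beta chain of MHC class II, rose 2.10-fold, reading 7.64, 8.003 and 7.83 against 6.92, 6.62 and 6.73 (limma adjusted p = 0.0391). In the dendritic cell and MHC class II list 11 of 13 genes above 4 had the higher mean, 4 had groups that did not overlap, and the median difference was 0.46. Without tumor-bearing lung 1 and control lung 3 it was again 11 of 13, with 7 without overlap. The share over all genes higher without overlap was 8.92% with 6 arrays and 16.6% with 4. Cd74, the invariant chain, differed by 0.46 ± 0.14 (limma adjusted p = 0.253; named after its values were seen). Among mast cell, basophil and eosinophil genes, Mcpt8, the basophil protease, read 7.31, 5.10 and 7.76 where all 3 controls were at 2.04 (limma adjusted p = 0.0545), while 9 of the 13 genes were at or under 4 throughout and Gata2 had overlapping groups.

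**Figure D4:**
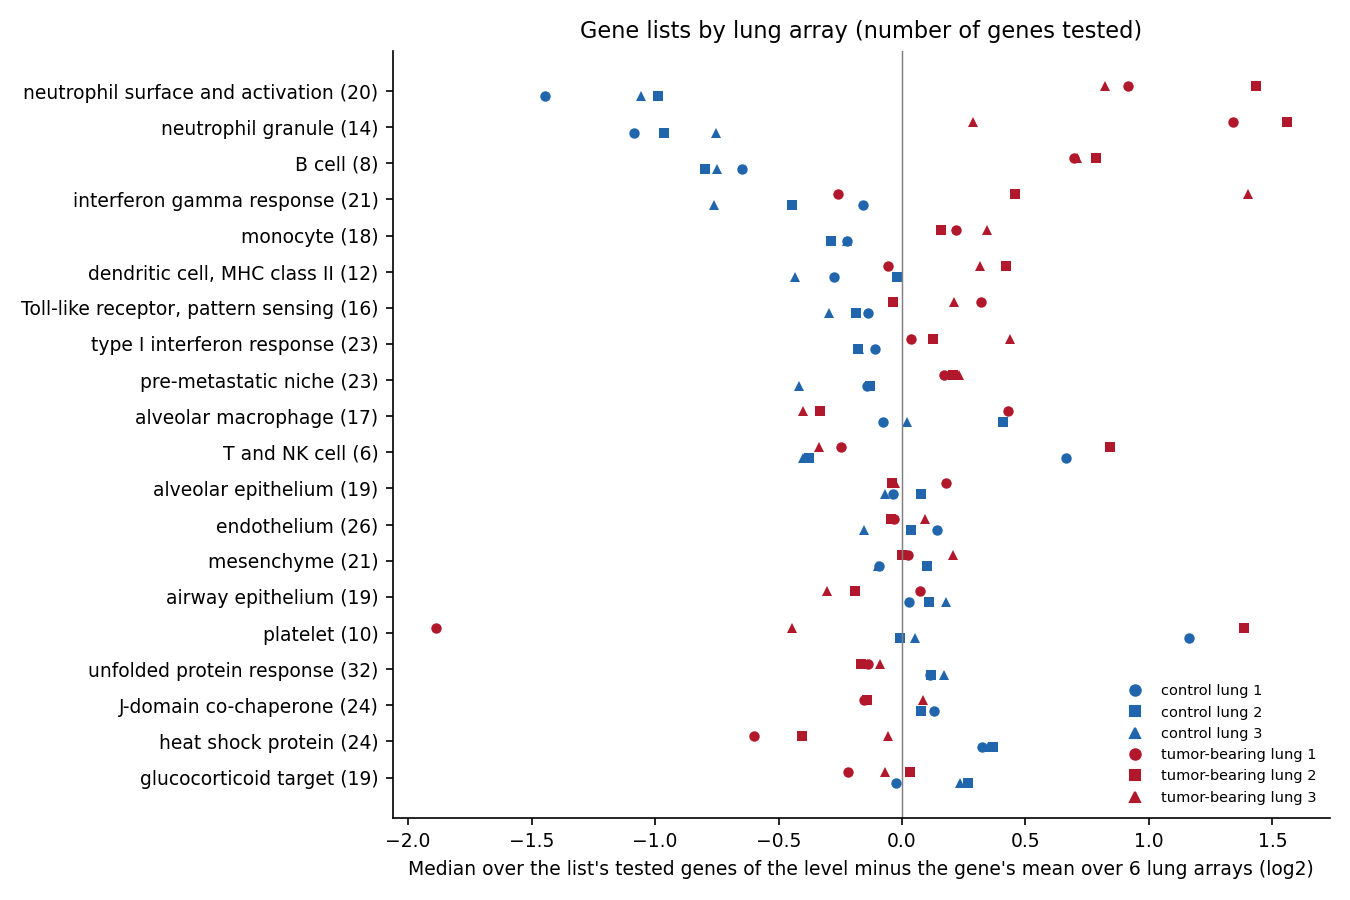
For 20 gene lists, the median over the list's tested genes of the level minus that gene's mean over the 6 lung arrays (log2), 1 point per array, controls in blue and tumor-bearing in red, with the number of genes tested in parentheses. The 3 tumor-bearing arrays lie above the 3 controls for both neutrophil lists and for B cell, monocyte, Toll-like receptor, type I interferon and pre-metastatic niche genes. They lie below the controls for heat shock and unfolded protein response genes. Some neutrophil genes were tested only because they were high in tumor-bearing lung.

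Many of the called genes are general leukocyte genes that no list held, and 34 of the 58 fell outside every list; they are grouped here by known role, after their values were seen. Ptprc encodes CD45, the phosphatase carried by all nucleated blood cells, and read 12.03, 12.23 and 11.97 against 11.10, 11.03 and 11.05, a 2.02-fold rise (limma adjusted p = 0.0182). Of 3 genes known from the leukocyte actin skeleton, Rac2, the blood cell Rac GTPase, rose 3.90-fold, Was, the Wiskott-Aldrich syndrome protein, 2.51-fold and Coro1a, coronin 1A, 2.44-fold. Among signalling enzymes, the genes that passed were Pik3cd, the delta catalytic subunit of PI3 kinase, 3.79-fold, Prkcb, 2.60-fold, Syk, 2.03-fold, and Ptk2b, 1.72-fold. No list of either kind was counted, so how many such genes did not pass is not given. Their limma adjusted p values lay between 0.0143 and 0.0391. In each of these genes every tumor-bearing array lay above every control array.

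Some called genes encode receptors that carry or counter activating signals in myeloid cells. Fcer1g, the common gamma chain of Fc receptors, rose 1.93-fold, and Fcgr2b, the inhibitory IgG receptor, 2.29-fold. Pirb, an inhibitory receptor for MHC class I, rose 2.81-fold, Cd300lf 2.92-fold and Lst1 3.41-fold. Lst1 read 9.37, 9.71 and 9.59 against 7.59, 7.97 and 7.80 (limma adjusted p = 0.0106), with groups well apart. Cd52, a small glycoprotein of lymphocytes and myeloid cells, rose 3.15-fold. Fcgr2b was also more than 2 log2 units higher in control liver than in control lung, 1 of 6 such called genes with Slc40a1, Ctse, Ifi44l, Sec14l2 and Gsta3.

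Few genes of the inflammatory lists passed. Il1b, the interleukin-1 beta cytokine, read 10.25, 11.18 and 10.08 against 6.92, 6.85 and 7.92 and rose 9.68-fold (limma adjusted p = 0.0391). Tlr1, which pairs with TLR2 to sense bacterial lipopeptides, read 6.62, 7.76 and 6.62 against 2.86, 2.78 and 2.70, at least 8.004-fold higher (limma adjusted p = 0.0099). Outside the lists, Pycard, the inflammasome adaptor ASC, rose 2.33-fold. Sting1, the sensor of cyclic dinucleotides and also in no list, rose 1.64-fold from low levels, 4.78, 4.83 and 4.78 to 5.46, 5.52 and 5.56. All 17 Toll-like receptor and pattern receptor genes above 4 had the higher mean, 6 without overlap, with a median difference of 0.38. Of all genes, 8.92% were higher without overlap with 6 arrays, and 16.6% higher and 23.1% lower with 4. Without tumor-bearing lung 1 and control lung 3, however, 13 of the 17 were higher and 4 lower, 7 and 1 without overlap, with a median of 0.20. Il1b was the only one called among the NF-kappa-B and cytokine genes, of which 14 above 4 were higher and 6 lower (11 and 8 without those arrays). Of the chemokine genes and their receptors 10 were higher and 8 lower (11 and 6 without those arrays), and none passed. The adaptor Myd88, named after its values were seen, differed by 0.59 ± 0.09 (limma adjusted p = 0.0614). Socs3, the feedback inhibitor of cytokine signalling, read 11.32, 11.78 and 11.44 against 10.10, 9.47 and 10.26 (limma adjusted p = 0.0585). Ccr1, a receptor for inflammatory chemokines, read 8.15, 8.71 and 7.33 against 5.01, 5.03 and 6.001 (limma adjusted p = 0.0621), and neither passed. Of the IL-6 and STAT3 response genes, Socs3 among them, 15 were higher and 6 lower (16 and 5 without those arrays), and none passed.

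Interferon-regulated genes were spread along the tumor-bearing arrays. No gene of the interferon gamma list passed, yet 22 of 23 above 4 had the higher mean and 8 had groups that did not overlap, with a median difference of 1.05. On the 4 arrays without tumor-bearing lung 1 and control lung 3 it was again 22 of 23, with 21 without overlap and a median of 1.43. Iigp1, an immunity-related GTPase, read 9.32, 10.52 and 12.59 against 9.52, 8.70 and 8.35, so tumor-bearing lung 1 lay within the controls and tumor-bearing lung 3 far above them. Cd274, which encodes PD-L1, read 7.99, 8.50 and 10.29 against 7.35, 7.13 and 6.78 (limma adjusted p = 0.276), and Gbp2, a guanylate-binding protein named after its values were seen, differed by 1.11 ± 0.41 (limma adjusted p = 0.331). Among 23 type I interferon genes above 4, 19 had the higher mean and 10 had groups that did not overlap, with a median of 0.24. Without those 2 arrays 19 were again higher, 15 without overlap, with a median of 0.36, and with all 6 arrays none passed. For comparison, 8.92% of all genes were higher without overlap with 6 arrays and 16.6% with 4. Oasl2 differed by 1.26 ± 0.28 and Zbp1 by 1.52 ± 0.42. Outside these lists, Ifitm1, a membrane restriction factor, rose 3.29-fold (limma adjusted p = 0.0099) and Ifi44l 3.80-fold (limma adjusted p = 0.0391). Only 1 Ifi44l control was above 4, and with values at or under 4 set to 4 its difference was 1.45 (log2). Its other probe set above background differed by 0.51.

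Genes named in work on the pre-metastatic niche were mixed, and none passed the test. Of 30 measured, 5 were at or under 4 on all arrays, 17 had the higher mean and 8 the lower, and 8 had groups that did not overlap in the higher direction and 1 in the lower. With tumor-bearing lung 1 and control lung 3 left out, 18 were higher and 6 lower, 9 and 2 without overlap. Shares over all genes were 8.92% and 9.31% with 6 arrays, and 16.6% and 23.1% with 4. Of the 8 higher ones with separated groups on all 6 arrays, 5 were the neutrophil genes given above, S100a8, S100a9, Mmp9, Csf3r and Itgam. Fn1, fibronectin, read 11.66, 12.42 and 12.35 against 11.13, 11.37 and 11.19 (difference 0.92 ± 0.22; limma adjusted p = 0.165). Vcan, the proteoglycan versican, read 5.10, 4.20 and 5.11 against 2.11, 3.59 and 2.19 (limma adjusted p = 0.134), and Saa3, a serum amyloid A of inflamed tissue, 9.25, 11.63 and 9.79 against 8.19, 8.90 and 7.20 (limma adjusted p = 0.295). Sphk1, sphingosine kinase 1, stood lower, at 6.12, 7.46 and 7.14 against 8.37, 8.53 and 8.51 (limma adjusted p = 0.137).

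The remaining niche genes were near their control levels or overlapped. Lox, which crosslinks collagen, differed by -0.04 ± 0.16, Vegfa by 0.00 ± 0.10, Cxcl12 by -0.24 ± 0.22, Tgfb1 by 0.20 ± 0.26, Id3 by -0.06 ± 0.26 and Kit by -0.06 ± 0.10, with changes of sign in some alternatives. Postn, periostin, differed by 0.19 ± 0.12, Tnc, tenascin C, by 1.33 ± 0.59, Cxcr4 by 0.49 ± 0.37, Kdr by 0.44 ± 0.21 and S1pr1 by -0.41 ± 0.26. Mmp3, Flt1 and Angptl4 differed by 0.05 ± 0.72, -0.17 ± 0.40 and -0.68 ± 0.41. In the wider matrix list of collagens, laminins and their partners, 24 of 36 genes above 4 had the higher and 12 the lower mean with a median difference of 0.10, and without tumor-bearing lung 1 and control lung 3 the split was 18 and 18 with a median of 0.004.

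Of the 9 lower genes, 4 encode chaperones or proteins of the stress response. They were 1 of 24 heat shock protein genes tested, 2 of 24 J-domain genes and 1 of 32 unfolded protein and integrated stress response genes. Over all 7907 genes tested, 0.114% were called lower. Dnaja4, a J-domain co-chaperone of HSP70, read 9.11, 9.26 and 9.55 against 10.78, 10.69 and 10.56 and fell by 1.37 on the log2 scale (SE 0.14; limma adjusted p = 0.019). Dnajb2, another J-domain protein, read 9.12, 9.30 and 9.20 against 10.03, 10.05 and 9.91 (1.73-fold lower; limma adjusted p = 0.0313). Hspa2, an HSP70 family member, read 7.52, 7.38 and 7.52 against 8.22, 8.37 and 8.54 (1.87-fold lower; limma adjusted p = 0.0391). Manf, a secreted protein induced by stress of the endoplasmic reticulum, fell 1.72-fold from 12.99, 12.97 and 12.98 to 12.13, 12.09 and 12.39 (limma adjusted p = 0.0466). In all 4 genes the groups lay apart and the controls were close to each other.

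Heat shock factor binds inverted repeats of a short unit, and the promoter of Dnaja4 is shown for that reason. Of the 8 called lower genes with a listed promoter, Dnaja4 alone held the letters GAANNTTC, which read the same on both strands. The run is again 250 bases before a RefSeq start (GRCm38.p6), with the matches in capitals.
Dnaja4, chr9:54699309-54699558 (plus strand): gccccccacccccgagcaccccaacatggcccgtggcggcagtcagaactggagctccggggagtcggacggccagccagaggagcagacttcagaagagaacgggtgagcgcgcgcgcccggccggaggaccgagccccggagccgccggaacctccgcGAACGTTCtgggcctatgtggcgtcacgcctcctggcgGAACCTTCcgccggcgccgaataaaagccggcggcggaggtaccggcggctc
The matches began 90 and 52 bases before the start; another listed start of the gene had none in its window. Among heat shock protein genes with a listed promoter, 6 of 21 windows, 28.6%, held a match, against 6.69% of all windows. Dnaja4 belongs to the J-domain list, where 4 of 32 windows, 12.5%, held a match. Among genes called lower it was 1 of 11 windows, 9.09%. No binding was measured.

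Of 24 heat shock protein genes above 4, 21 had the lower mean in tumor-bearing lung and 3 the higher, and 16 had groups that did not overlap in the lower direction against 0 in the higher. The median difference was -0.76. Without tumor-bearing lung 1 and control lung 3, 20 were lower and 4 higher, 17 and 0 without overlap, with a median of -0.54. Across all genes, 9.31% were lower without overlap with 6 arrays and 23.1% with 4. Tumor-bearing lung 1 was lowest and tumor-bearing lung 3 closest to the controls on the median of the list, at -0.60 and -0.06 relative to the mean of 6 arrays, with the controls at 0.33 to 0.37. Hspa4l, an HSP110 relative, Stip1, the HSP70 and HSP90 organizing protein, and Hspd1, the mitochondrial HSP60, were named after their values were seen. They differed by -1.63 ± 0.24, -1.37 ± 0.24 and -0.77 ± 0.14 (limma adjusted p = 0.0555, 0.0866 and 0.093). J-domain genes had 19 of 24 lower, 8 without overlap, and a median of -0.18, and without those 2 arrays 18 of 24, 11 without overlap, and -0.14. Unfolded protein and integrated stress response genes had 27 of 32 lower, 12 without overlap, and a median of -0.24, and without those 2 arrays again 27 of 32, 18 without overlap, and -0.22. Hspa5, the chaperone BiP, differed by -0.46 ± 0.12 (limma adjusted p = 0.206; named after its values were seen).

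Cirbp, an RNA-binding protein that is induced by mild cooling, went the other way. It rose 2.93-fold, reading 10.15, 9.78 and 9.79 against 8.08, 8.60 and 8.39 (limma adjusted p = 0.0299). Glucocorticoid receptor target genes were lower without any passing, 17 of 20 having the lower mean, 6 without overlap, and a median of -0.42. Without tumor-bearing lung 1 and control lung 3 it was 15 of 19, 8 without overlap, and -0.32. Lower without overlap were 9.31% of all genes with 6 arrays and 23.1% with 4. Zbtb16 read 7.79, 10.21 and 10.53 against 11.56, 11.50 and 11.67 (limma adjusted p = 0.304), and Fkbp5, 8.22, 10.16 and 10.58 against 11.07, 11.85 and 11.38 (limma adjusted p = 0.317). In both, tumor-bearing lung 1 lay far below the other tumor-bearing arrays, and the differences of -2.07 and -1.78 were -1.16 and -1.09 without that array and control lung 3. Per2, a clock gene, read 9.45, 10.18 and 10.51 against 11.06, 10.73 and 11.04 (limma adjusted p = 0.261).

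**Figure D5:**
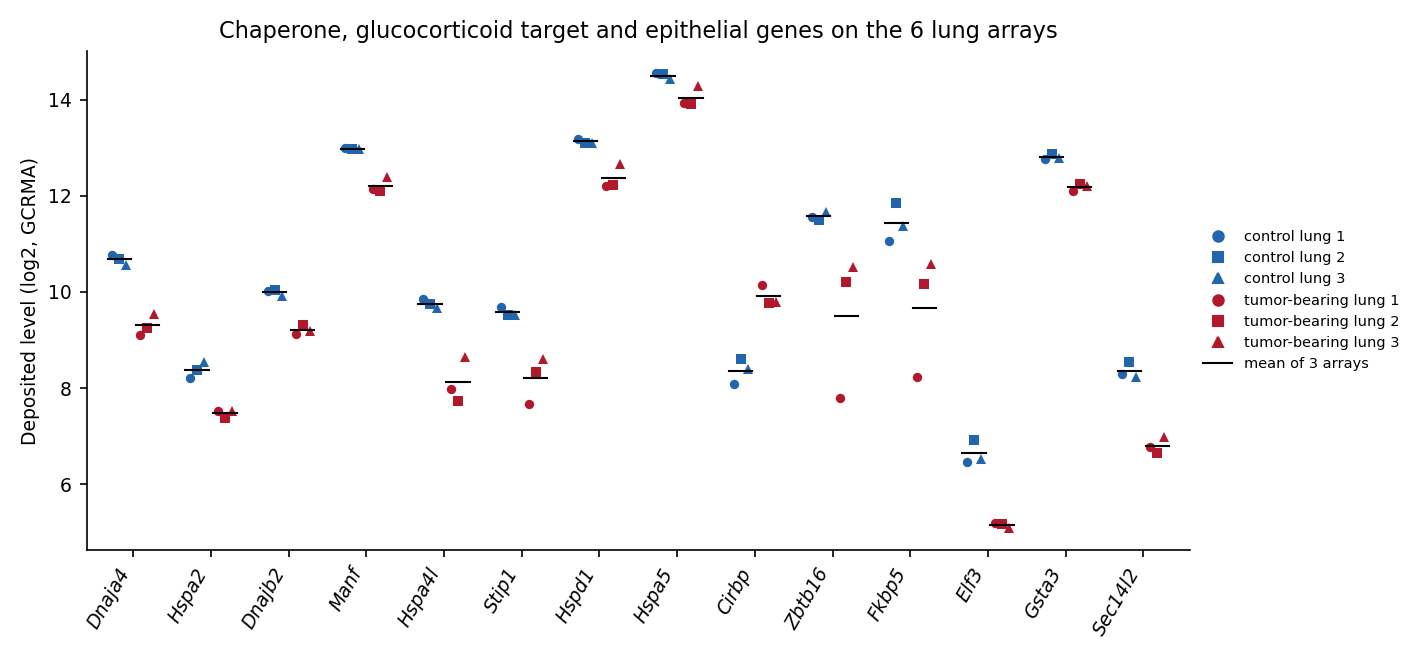
Deposited level (log2, GCRMA) of 14 chaperone, glucocorticoid target and epithelial genes on each of the 3 control (blue) and 3 tumor-bearing (red) lung arrays, with a bar at each mean. Control values lie above tumor-bearing ones for every gene but Cirbp; Hspa4l, Stip1, Hspd1, Hspa5, Zbtb16 and Fkbp5 did not pass limma's adjusted threshold, and tumor-bearing 1 is lowest for Zbtb16 (7.79) and Fkbp5 (8.22).

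Among genes of the lung's structural cells, a few epithelial genes fell. Elf3, an epithelial transcription factor, read 5.20, 5.17 and 5.09 against 6.47, 6.93 and 6.53 and fell 2.80-fold (limma adjusted p = 0.016). Gsta3, a glutathione transferase that airway secretory cells make and NRF2 controls, read 12.11, 12.24 and 12.19 against 12.77, 12.88 and 12.79 and fell 1.55-fold (limma adjusted p = 0.0448). Foxj1, the master regulator of motile cilia named after its values were seen, read 3.11, 3.39 and 3.07 against 4.17, 6.42 and 5.89 (limma adjusted p = 0.174). Of 19 airway genes above 4, Ltf among them, 13 had the lower mean and 6 the higher, with 5 and 1 without overlap and a median of -0.24. On the 4 arrays without tumor-bearing lung 1 and control lung 3, 16 were lower and 3 higher, with 14 and 1 without overlap and a median of -0.32. The lower and higher shares over all genes were 9.31% and 8.92% with 6 arrays and 23.1% and 16.6% with 4. Of the other lower genes, Mak, a kinase of ciliated and germ cells, was at 4.18, 4.04 and 4.35 in controls and under 4 on every tumor-bearing array (at least 1.14-fold lower; limma adjusted p = 0.0139). Sec14l2, a lipid transfer protein, fell 2.93-fold, reading 6.77, 6.65 and 6.98 against 8.29, 8.54 and 8.23 (limma adjusted p = 0.0127), and Klhl21, an adaptor of a ubiquitin ligase, fell 1.54-fold.

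Alveolar epithelial, endothelial and mesenchymal genes above 4 had median differences of -0.01, -0.04 and 0.12, and none of the 19, 26 and 21 tested passed. With tumor-bearing lung 1 and control lung 3 left out the medians were -0.06, -0.06 and 0.06. There 8 of 19 alveolar genes were lower without overlap, where the share over all genes was 23.1%. Il33, an alarmin stored in alveolar type 2 cells, read 11.04, 10.86 and 10.67 against 11.48, 11.33 and 11.57 (limma adjusted p = 0.131). Oxidative phosphorylation genes had a median of 0.02 and hypoxia genes -0.09, against 0.02 and -0.12 without those 2 arrays. Hk2, hexokinase 2, read 8.14, 8.03 and 8.34 against 8.91, 9.09 and 9.23 (limma adjusted p = 0.053). No mitosis gene passed, 10 of 11 above 4 having the higher mean and 4 no overlap (9 of 11 and 7 without those 2 arrays). All-gene shares higher without overlap were 8.92% with 6 arrays and 16.6% with 4. Mki67, the proliferation marker, read 6.15, 6.71 and 7.28 against 5.05, 5.58 and 4.47 (limma adjusted p = 0.146).

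A few called genes belong to none of these groups. Slc40a1 encodes ferroportin, the only known cellular iron exporter, and read 8.45, 8.91 and 8.24 against 6.25, 6.06 and 6.73, a 4.55-fold rise (limma adjusted p = 0.0272). Ctse, the aspartic protease cathepsin E, rose 3.44-fold on the probe set used, from 6.97, 6.95 and 6.92 to 8.47, 9.03 and 8.68 (limma adjusted p = 0.0127), but its other probe set above background differed by -0.69, so the call holds for 1 of 2 probe sets. Of 14 other probe sets above background, belonging to 11 called genes, 13 had the sign of the probe set used. Igsf6 and Ripor2 rose 3.27-fold and 3.23-fold, Ms4a6b 2.61-fold, and Stk17b, St8sia4, Plcl2, Fxyd5 and Cyrib by 1.63-fold to 1.76-fold. For Igsf6 only 1 control was above 4, and with values at or under 4 set to 4 it rose by 1.53 (log2).

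To see which changes set the lung apart, the lung change was compared with the liver change in 1 limma fit of all 12 arrays. The difference passed for 131 of 8433 genes (1.55%), and for 25 of the 58 genes called in lung, a count that the choice of large lung changes favours. Many neutrophil genes were at or under 4 in liver, so the size of their difference was not measured, and it is given here with all values at or under 4 set to 4. Ltf, Camp, Cd177, Clec4e and Mmp8 were at or under 4 on all 6 liver arrays and on all control lung arrays. Their lung changes then exceeded the liver changes by 4.88, 4.98, 3.54, 2.66 and 2.60, which are their lung rises above 4. Ngp was above 4 on all 12 arrays, and its lung change exceeded its liver change by 5.39 (limma adjusted p = 0.0139). Cd79b was above 4 on 1 of 6 liver arrays and Elf3 on none, so no liver change was measured for them, while both were above 4 on all lung arrays. Among the called genes for which no difference between the organs was shown, Il1b was 3.03 higher in tumor-bearing liver (lung minus liver 0.24 ± 0.59; limma adjusted p = 0.877), Cirbp 1.44 (0.11 ± 0.31) and Coro1a 1.19 (0.09 ± 0.31), while Dnaja4 and Dnajb2 were lower by 1.95 and 0.85 on the log2 scale. S100a8 and S100a9 differed by 4.21 and 3.13 in liver. Of the 49 genes higher in lung, 36 were above 4 on at least 3 of the 6 liver arrays, and 30 of these (83.3%) had the higher mean in tumor-bearing liver, against 39.1% of all 7194 such genes.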

How the data were processed

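Lung and liver RNA was hybridised to 1-colour Affymetrix mouse arrays, and the deposited values, 1 column per sample, are log2 levels that the authors made with GCRMA, per the submitters' processing notes, which also name limma (versions: not given in the sources used here). That scale was checked on the values, whose lowest was 2.04 on every array. Background correction by probe sequence and quantile normalization make low values bunch near that minimum and hide any overall shift in RNA. Of 22626 probe sets, 20380 had 1 gene symbol in the platform annotation, 691 had several and 1555 were not listed; the last 2 kinds were left out. For each of 12393 genes 1 probe set was used, that of the greatest mean across the 12 arrays. Genes above 4 (log2) on at least 3 of the 6 lung arrays were tested with limma 3.58.1 (lmFit, eBayes) in R 4.3.3 on the lung arrays alone, p-values being adjusted by Benjamini and Hochberg's method and called under 0.05. For the difference between organs all 12 arrays were fitted as 4 groups.

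List counts cover genes above 4 on at least 1 of the arrays compared. Where all arrays of 1 group were at or under 4, the fold was computed against 4 and is a lower bound. A total of 41 gene lists held 1056 entries, of which 919 were matched, older symbols through RefSeq synonyms. Any gene past the threshold could be named, with at most 4 such genes of a list, or its 2 largest changes where none passed, and every niche gene. All 7 called genes of the neutrophil surface and cytosol list were named, past that limit of 4. The other genes outside that rule are marked in the text. The members and lists were chosen with earlier results of these data known. Numbers were not treated as pairing samples, since the labels do not say that they do. Correlations of deviations were -0.01, 0.20 and -0.22 for same-numbered lung arrays and ran from -0.286 to 0.255 for differently numbered ones. They cannot decide whether the numbers pair mice. Alternatives covered the filter, probe set choice, normalization, moderation, weights, floor, a hepatocyte term and each array left out with the same genes tested. The scripts were tested on simulated data. Promoters are RefSeq's, from the GRCm38.p6 assembly.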

Additional observations from a re-analysis of the deposited data

Results flagged for a closer look

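For 25 of the 58 genes called in lung, the change between tumor-bearing and control mice differed between lung and liver in limma's test of that difference (adjusted p under 0.05). The values in parentheses are the lung change minus the liver change (log2), n = 3 arrays in each of the 4 groups. Neutrophil genes were Ifitm6 (6.46), Camp (6.27), Ltf (6.26), Ngp (5.39), Cd177 (5.45), Slfn4 (5.09), Clec4e (4.60), Mmp8 (3.82), Ncf4 (1.55), Alox5ap (1.30) and Cyp4f18 (2.82). Lymphocyte and antigen presentation genes were Cd79b (2.62), Ltb (1.98) and H2-Eb1 (1.08). Receptors and membrane proteins of innate immunity were Tlr1 (3.76), Ifitm1 (1.28), Igsf6 (1.60) and Pirb (1.41). Other genes higher in lung were Slc40a1 (1.71), Ctse (1.82), Ripor2 (1.38) and St8sia4 (0.87); on its other probe set above background Ctse differed by -0.69 in lung. Of the lower genes, Elf3 (-1.44), Sec14l2 (-1.67) and Mak (-1.86) differed. Camp, Ltf, Cd177, Clec4e, Mmp8 and Tlr1 were at or under 4, taken as not above background, on all liver and all control lung arrays, and Slfn4, Cyp4f18, St8sia4, Elf3 and Mak on all liver arrays; Ifitm6, Ltb and Cd79b were above 4 on 1 liver array. For these genes the values above are not measured sizes. With values at or under 4 set to 4 they were 4.98, 4.88, 3.54, 2.66, 2.60 and 3.00 for the first 6, 4.87, 2.99, 0.80, -1.49 and -0.19 for the next 5, and 6.58, 2.02 and 2.34 for the last 3, and Mak no longer passed (limma adjusted p = 0.445). The genes were chosen for their lung change, which favours a difference from liver, and Slc40a1, Ctse and Sec14l2 were more than 2 log2 units higher in control liver than in control lung, so that their liver changes start from another level.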

How the results depend on the processing

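The counts of 49 higher and 9 lower genes moved with the number of arrays and the estimate of spread. Without tumor-bearing lung 1 and control lung 3 they were 0 and 0. With a term for those 2 hepatocyte-rich arrays they were 23 and 6, with the hepatocyte mean as covariate 24 and 6, and 24 of the 29 and 24 of the 30 were among the 58. They were 8 and 3 with no filter, 72 and 14 with a filter at 6, 63 and 19 with mean probe sets, 55 and 15 after quantile normalization, 89 and 25 with trend and robust moderation, 80 and 19 with array weights, 154 and 77 in 1 fit of all 12 arrays, and 119 and 36 at an adjusted p under 0.1. A replicate block, which assumes that numbers pair a tumor-bearing with a control mouse, left 1 and 0. Each number holds 1 tumor-bearing and 1 control lung array, so that block leaves every change as it was and no direction could turn. It alters only the estimate of spread and the degrees of freedom left for it, and their shares in the drop were not tested. Leaving out 1 array gave 4 to 24 higher and 0 to 9 lower genes. The highest lung probe set (50 and 9), left-out liver-enriched genes (50 and 8), median centring (56 and 13) and a floor at 4 (52 and 9) stayed within 1.5 times. The count of 25 genes that differed between organs was 17 without both arrays and 21 to 28 with 1 array left out. It was 27 with another block, which ties the lung and liver arrays of the same group and number (consensus correlation 0.039). No called gene reversed under any alternative, 532 of their values lost the threshold and 672 did not. Leaving out arrays could not have reversed a called gene, since its groups did not overlap on all 6 arrays. Reversals occurred in genes that had not passed. Without both arrays they were Gata2 0.049, Mb 1.21, Mmp3 -0.80, Lox 0.043, Kit 0.056, Cxcl12 0.011, Tgfb1 -0.16 and Id3 0.13. With mean probe sets Lox was 0.007 and Vegfa -0.22, with the covariate Vegfa was -0.008, after quantile normalization -0.02, and with the highest lung probe set Lss was 0.019. With 1 array left out, ranges that crossed 0 were -0.021 to 1.06 for Nkg7, -1.40 to 0.105 for Gata2, -1.82 to 2.46 for Myl4, -2.33 to 0.32 for Mb, -3.77 to 0.12 for Car3, -3.56 to 0.66 for Fga, -0.79 to 0.64 for Mmp3, -0.163 to 0.065 for Lox, -0.105 to 0.018 for Kit, -0.475 to 0.30 for Flt1, -0.054 to 0.062 for Vegfa, -0.014 to 0.42 for Tgfb1 and -0.35 to 0.14 for Id3. The cause was not tested. Values near the lowest level carry no order.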

Other observations

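Platelet genes separated single mice and not the groups. Gp9, a subunit of the receptor for von Willebrand factor, read 2.29, 7.10 and 3.05 on the tumor-bearing arrays and 6.99, 5.62 and 5.22 on the controls, and Gp1bb, another subunit, 4.05, 9.25 and 8.17 against 9.35, 8.63 and 8.37. Erythroid genes had their highest values on control lung 1, where Alas2, the first enzyme of erythroid heme synthesis, read 12.09 against 9.15 to 10.14 on the other arrays. Immediate early genes also varied within a group. Nr4a1 read 11.55, 10.90 and 8.40 on the tumor-bearing arrays against 8.07, 8.54 and 8.45, and Egr1 10.44, 7.90 and 8.48 against 7.96, 7.60 and 7.65. None of these genes passed limma's adjusted threshold.

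Genes of sterol synthesis and antioxidant defence had lower means in tumor-bearing lung, 16 of 23 and 16 of 21 above 4 on at least 1 array, with 4 and 8 without overlap. Without tumor-bearing lung 1 and control lung 3 it was 17 and 16, with 14 and 12 without overlap. All genes counted alike were lower without overlap in 9.31% with 6 arrays and 23.1% with 4. Lss, lanosterol synthase, read 5.92, 5.59 and 6.52 against 7.64, 7.06 and 7.24 (limma adjusted p = 0.126), and Hmox1, heme oxygenase 1, named after its values were seen, 7.63, 7.13 and 6.83 against 7.97, 8.13 and 8.06 (limma adjusted p = 0.172). Cfp, the complement factor properdin that neutrophils release, read 6.55, 8.41 and 6.43 against 5.63, 6.09 and 5.71 (limma adjusted p = 0.386).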
